A study of Homo sapiens with 16 samples.

Results

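TPC1 cells, a human papillary thyroid carcinoma line, were treated for 24 h with 25 µM GSK2830371, an inhibitor of the phosphatase PPM1D, and compared with cells given the vehicle, 0.2% DMSO. The comparison rests on 4 of the 16 libraries of the study, chosen by line and treatment alone, with 2 libraries per group. The other TPC1 libraries received 10 µM nutlin, which frees p53 from MDM2, or nutlin with GSK2830371, and the same 4 treatments were given to a further papillary thyroid carcinoma line, K1. All libraries hold strand-specific poly(A)-selected RNA after 24 h, and the deposited values are raw read counts for 25369 gene symbols. TPC1 is a single established line grown in RPMI, whereas K1 was grown in DMEM, so line and medium cannot be told apart in any contrast between them.

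PPM1D is a serine and threonine phosphatase that removes activating phosphates from p53 and from kinases of the DNA damage response, and its own gene is a target of p53. GSK2830371 binds PPM1D outside the catalytic site and blocks its activity. In the integrated stress response, kinases such as HRI, PKR, PERK and GCN2 phosphorylate eIF2alpha, bulk translation falls, and the transcription factor ATF4 is translated more. ATF4 then drives genes for amino acid supply, glutathione turnover and secreted stress factors. ATF4 acts through C/EBP-ATF response elements, whose core letters are TGATGNAA.

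Totals of the 4 libraries ran from 31578138 to 76648552 counts, and the libraries numbered 3 were the deeper ones in both groups. The TPC1 columns of the deposited table are numbered 1 and 3 while their labels run 1 and 2, so columns numbered 3 were assigned to their treatment without naming a sample. Across genes, libraries of the same number deviated together in every pair of TPC1 treatments (correlation 0.495 to 0.697 over 12308 genes, which are not independent replicates), and the replicate number was used as a block. The thyroid factor *PAX8* stood at 323 and 326 CPM (read counts scaled to a common library total) under DMSO and at 361 and 354 CPM under GSK2830371. *FOXE1* stood between 22 and 25.8 CPM in the 4 libraries, whereas *NKX2-1* and *TSHR* had no count in any of them and *TG* at most 22 counts. Of 27 markers of other lineages, 12 had no count in the 4 libraries and 21 had under 10 counts in each, *PTPRC*, *CD3E*, *HBB*, *CHGA* and *DCN* being among those at 0. The markers above that level were *CD68* (1261 to 4054 counts), *PDGFRB* (255 to 924), *LUM* (81 to 264), *SYP*, *CD14* and *GFAP*. In the list of epithelial and carcinoma line markers, *KRT8* stood at 400 to 516 CPM and *VIM* at 3095 to 3703 CPM. There *CDH1* had at most 1 count in any library, *EPCAM* at most 10 and *KRT19* at most 14.

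Among the genes of the ATF4 target list that rose, 21 of 23 had a promoter window in RefSeq (GRCh38.p14, 250 bases before to 50 after a start site), and in 4 of these the window held TGATGNAA on either strand. The windows of *ASNS*, *CHAC1* and *ATF3* are shown up to the start site or 50 bases past the match, because these genes belong to the group that moved most, with the matched letters in capitals. *CHAC1* carries the match on the strand opposite to the gene, where it reads as its reverse complement. They lie at chr7:97872419-97872526 (minus strand), chr15:40953221-40953319 (plus strand) and chr1:212565166-212565273 (plus strand), with the match beginning 68, 209 and 191 bases upstream of the start site, in that order.
ASNS: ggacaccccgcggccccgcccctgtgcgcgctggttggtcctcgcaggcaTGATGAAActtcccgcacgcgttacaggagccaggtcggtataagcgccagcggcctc
CHAC1: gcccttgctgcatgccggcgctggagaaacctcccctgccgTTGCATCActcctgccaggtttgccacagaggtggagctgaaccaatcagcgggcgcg
ATF3: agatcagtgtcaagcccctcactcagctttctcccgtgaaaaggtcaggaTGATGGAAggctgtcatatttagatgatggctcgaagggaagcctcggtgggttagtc
*SLC1A4* is the fourth gene with a match. Counted by window, 4 of 33 windows of the raised list members held the letters (12.1%), as did 6 of 32 windows of the list members that were not called (18.8%). Over all genes tested the share was 336 of 15714 windows (2.14%), and over all 35116 RefSeq windows it was 3.62%. A match is a description of the letters and does not show binding.

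GSK2830371 alone raised 239 genes and lowered 241 of the 15273 tested in TPC1, which is 1.56% and 1.58% of them. A gene was called raised or lowered where the edgeR quasi-likelihood test, with p adjusted by Benjamini-Hochberg, gave a value under 0.05 and the fold change exceeded 1.5. Of these, 61 rose and 88 fell by more than 2-fold. At any fold, 1620 genes were higher with an adjusted p under 0.05 (10.6%) and 1740 were lower (11.4%). Both GSK2830371 libraries stood above both DMSO libraries in 24.2% of all genes tested and below them in 25.5%. The same held for 238 raised and 239 lowered genes, which describes the calls and adds no support, since the calls were made from these 4 libraries. The difference had the same sign within replicate 1 and within replicate 3 for 239 raised and 240 lowered genes, from the same libraries again.

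The number of calls depended on the block and on the scaling. Without the replicate block, 110 genes rose and 104 fell. Scaling by library size alone gave 322 raised and 182 lowered genes, and an adjustment for the GC content and length of transcripts, added once the data had been seen, left 169 raised and 280 lowered. Without GSK2830371 replicate 3 the counts were 141 and 116, and without GSK2830371 replicate 1 they were 212 and 158. Called genes were of low abundance, with a median of 2.83 CPM under DMSO for the raised and 2.88 CPM for the lowered, against 19.1 CPM for all genes tested. Their median GC content was 51.3% and 51.0%, against 48.2% for all genes tested with a reference value.

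**Figure D1:**
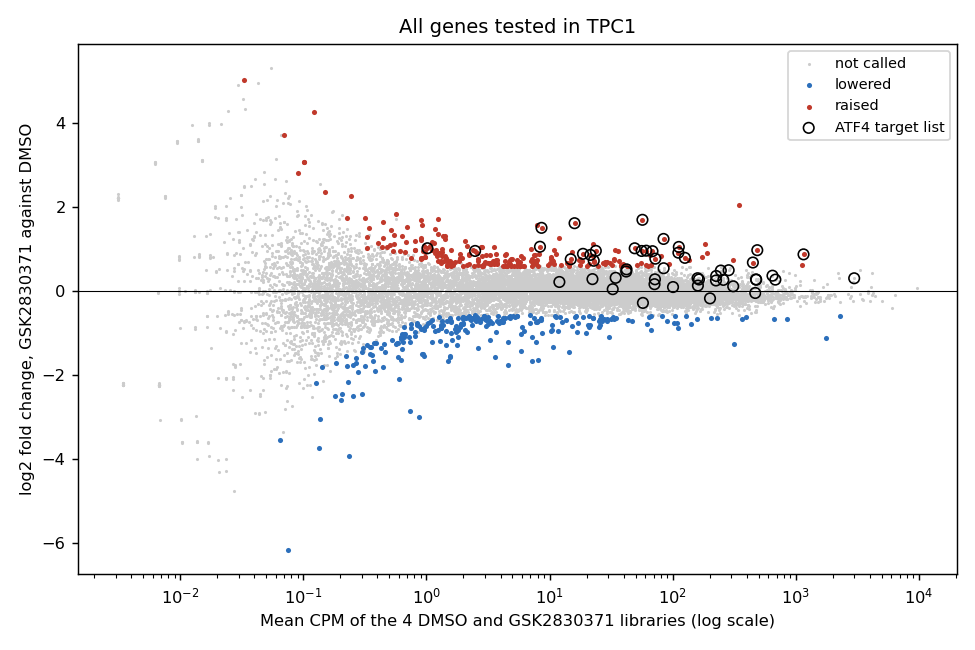
Each point is a gene tested in TPC1, placed by the mean CPM of the 4 libraries (log scale) and by its log2 fold change under GSK2830371 against DMSO. The 239 raised genes are red, the 241 lowered genes blue, and black rings mark the 50 tested members of the ATF4 target list, of which 23 are raised and none is lowered.

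The 12 largest increases and the 12 largest decreases described next were chosen among called genes with groups that do not overlap, so their separation is a description. The gene with the largest increase at 5 CPM or more was *HMOX1*, which encodes heme oxygenase 1, the enzyme that opens the heme ring (chromosome 22, 35776354 to 35790207 in GRCh37). Its CPM values were 128 and 146 under DMSO and 549 and 574 under GSK2830371. Both treated libraries lay far above both controls. The log2 fold change was 2.03 ± 0.17 (SE; adjusted p = 4.1e-06, edgeR quasi-likelihood test, Benjamini-Hochberg).

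*CHAC1*, which degrades glutathione, stood at 26.5 and 27.4 CPM under DMSO and at 84.7 and 89.0 CPM under GSK2830371 (chromosome 15, 41245160 to 41248710). The spread within each group was small beside the difference, and the log2 fold change was 1.69 ± 0.07 (adjusted p = 1.5e-09 in the edgeR quasi-likelihood test). *CTH*, which makes cysteine from cystathionine, had 8.19 and 7.62 CPM under DMSO and 24.5 and 23.6 CPM under the inhibitor, a log2 fold change of 1.61 ± 0.09. *DDIT3*, the stress factor CHOP, had 4.08 and 4.75 CPM against 13.2 and 12.4 CPM, or 1.5 ± 0.13. These groups did not overlap for any of the 3 genes.

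*PCK2*, the mitochondrial phosphoenolpyruvate carboxykinase, went from 49.2 and 51.5 CPM to 119 and 118 CPM (1.24 ± 0.06 on the log2 scale). *ASNS*, asparagine synthetase, went from 68.2 and 78.6 CPM to 144 and 159 CPM (1.04 ± 0.06). *PPP1R15A*, the stress-induced subunit that directs a phosphatase to eIF2alpha, went from 30.5 and 34.6 CPM to 63.3 and 68.5 CPM (1.01 ± 0.12). Each of these increases was larger than the spread within either group.

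*GDF15*, a secreted cytokine that is a target of both p53 and the stress response, had 107 and 127 CPM under DMSO and 243 and 260 CPM under GSK2830371, with a log2 fold change of 1.10 ± 0.06. The other genes among the 12 largest increases were *THBD* (thrombomodulin, 1.56 ± 0.18), *TM4SF19* (1.26 ± 0.22), *SLFN5* (1.12 ± 0.10) and *KDM7A*, a histone demethylase (1.05 ± 0.15). In *THBD*, *SLFN5* and *KDM7A* the replicate 1 library was the higher one in both groups, with *KDM7A* at 7.17 and 4.08 CPM under DMSO and 11.7 and 10.5 CPM under the inhibitor.

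Among the 12 largest decreases, *TNFRSF19*, a receptor of the TNF family, had 7.79 and 6.50 CPM under DMSO and 2.21 and 2.01 CPM under GSK2830371, a log2 fold change of -1.76 ± 0.17. *FGB*, the fibrinogen beta chain, had 11.9 and 12.6 CPM against 3.52 and 4.26 CPM (-1.64 ± 0.12). *CDH6*, a cadherin, had 23.4 and 19.3 CPM against 7.43 and 7.84 CPM (-1.46 ± 0.10). In each gene both treated libraries lay below both controls.

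*IGFBP3*, which binds insulin-like growth factors, had 419 and 466 CPM under DMSO and 173 and 197 CPM under the inhibitor, a log2 fold change of -1.26 ± 0.09. *THBS1*, the matrix glycoprotein thrombospondin 1, had 2705 and 2148 CPM against 1138 and 1082 CPM (-1.13 ± 0.19), and *TGFB2*, a ligand of the TGF-beta family, had 43.5 and 40.1 CPM against 19.8 and 19.3 CPM (-1.10 ± 0.10). The remaining large decreases were those of *ZBED2* (-1.66 ± 0.13), the neurotrophin receptor *NTRK3* (-1.56 ± 0.16), the epithelial transcription factor *ELF3* (-1.44 ± 0.22), *C1orf116* (-1.34 ± 0.09), *SPRY1*, an inhibitor of receptor kinase signalling (-1.23 ± 0.11), and the growth factor *FGF1* (-1.21 ± 0.14).

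**Figure D2:**
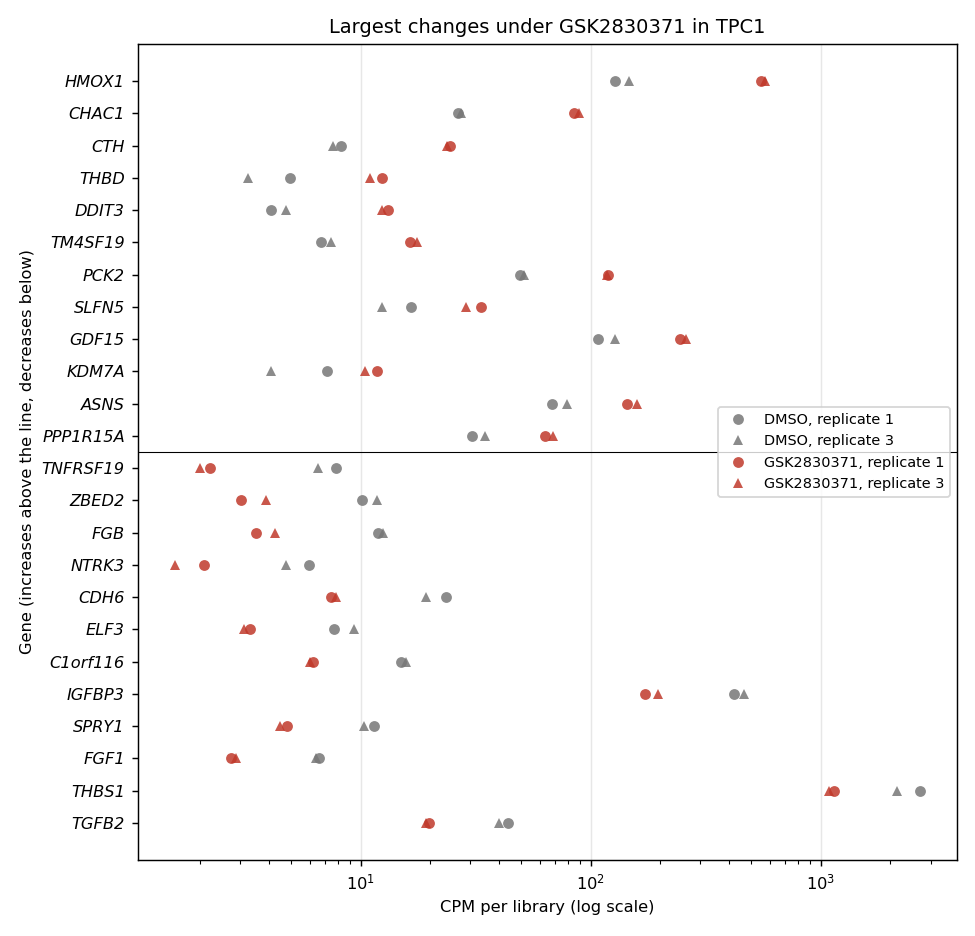
CPM (log scale) of the 12 largest increases and the 12 largest decreases among called genes with at least 5 CPM in the higher group, with 1 point per library. Grey points are DMSO and red points GSK2830371, circles are replicate 1 and triangles replicate 3, and groups that do not overlap were a condition for choosing these 24 genes. *HMOX1* spans 128 to 574 CPM and *TNFRSF19* 7.79 to 2.01 CPM.

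The ATF4 target list held the largest share of called genes among the 35 gene lists described here. The lists were chosen with earlier results of these data known, so their shares are descriptions. Of its 50 members tested, 23 rose and none fell, or 46%, against 1.56% of all genes tested. At any fold, 41 members were higher with an adjusted p under 0.05 and 2 were lower, and 47 had a fold change above 0. The median log2 fold change of the list was 0.50, against -0.0048 for all genes tested, and it was 0.52 within replicate 1 and 0.50 within replicate 3. Over 19 other settings the number of raised members ran from 18 to 41, the highest being the count without a limit on fold change, and the median from 0.43 to 0.55.

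Several roles within the ATF4 list were represented among the raised members. *SLC7A11*, the cystine transporter, had 48.9 and 29 CPM under DMSO and 80.5 and 65.8 CPM under GSK2830371 (0.95 ± 0.10 on the log2 scale). Here replicate 1 was the higher library in both groups, and the call was lost without the block. Of the other amino acid transporters, *SLC1A4* rose by 0.95 ± 0.07 and *SLC6A9*, a glycine transporter, by 0.88 ± 0.08. *SLC7A5* and *SLC3A2*, the subunits of the large neutral amino acid exchanger, changed by 0.30 ± 0.06 and 0.36 ± 0.05, short of 1.5-fold.

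Among the enzymes of serine and one-carbon metabolism, *PSAT1* rose by 0.67 ± 0.06. *PHGDH* (0.48 ± 0.06), *MTHFD2* (0.49 ± 0.06) and *ALDH1L2* (0.54 ± 0.07) had adjusted p under 0.05 but stayed under 1.5-fold, and *SHMT2* (0.11 ± 0.06) and *PSPH* (0.16 ± 0.06) did not pass the test. The secreted factors *STC2* and *ADM2* rose by 0.96 ± 0.06 and 0.72 ± 0.07, whereas *VEGFA* had a log2 fold change of 0.27 ± 0.06. Both *SESN2* and *DDIT4*, which restrain mTORC1, rose, by 0.94 ± 0.06 and 0.97 ± 0.06.

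Of the transcription factors downstream of ATF4, *ATF3* had 1.77 and 1.72 CPM under DMSO and 2.7 and 3.76 CPM under the inhibitor, a log2 fold change of 0.95 ± 0.15 whose call was lost without GSK2830371 replicate 3. *CEBPB* (0.77 ± 0.08), *NUPR1* (0.91 ± 0.07) and the pseudokinase *TRIB3*, which binds ATF4 (0.78 ± 0.08), also rose. *CEBPG* (0.46 ± 0.07) stayed short of 1.5-fold, and *ATF5* had a log2 fold change of -0.29 ± 0.06.

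The mRNA of *ATF4* itself (chromosome 22, 39915700 to 39918688) stood at 616 and 693 CPM under DMSO and at 786 and 846 CPM under GSK2830371. The groups did not overlap, and the log2 fold change was 0.32 ± 0.06 with an adjusted p of 0.0010 in the edgeR quasi-likelihood test, under the 1.5-fold limit. The genes of the 4 eIF2alpha kinases had values near 0 on the log2 scale. These were 0.02 ± 0.05 for *EIF2AK1*, which encodes HRI, 0.06 ± 0.07 for *EIF2AK2* (PKR), 0.01 ± 0.08 for *EIF2AK3* (PERK) and 0.0014 ± 0.055 for *EIF2AK4* (GCN2), and none passed the test. In the list of 8 eIF2alpha kinases and phosphatase genes, *PPP1R15A* was the 1 gene that rose (12.5%, against 1.56% of all genes tested) and none fell (median 0.04).

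None of 20 cytosolic aminoacyl-tRNA synthetases, the enzymes that load amino acids onto tRNA, was called (median 0.09). The members with the largest changes were *SARS*, which went from 180 and 203 CPM to 256 and 272 CPM (0.46 ± 0.06), and *GARS* (0.38 ± 0.06). Of 28 targets of ATF6 and XBP1, the factors of the endoplasmic reticulum stress response, 1 rose and none fell (median -0.0016). The raised share was 3.57%, against 1.56% of all genes tested. The raised gene was *ERN1*, the sensor IRE1, at 0.65 ± 0.13, and *DNAJB9* reached 0.46 ± 0.11 without a call. No member of 16 cytosolic heat shock genes was called (median -0.14), with *SERPINH1*, the collagen chaperone, at -0.56 ± 0.06 and *CHORDC1* at -0.48 ± 0.07.

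**Figure D3:**
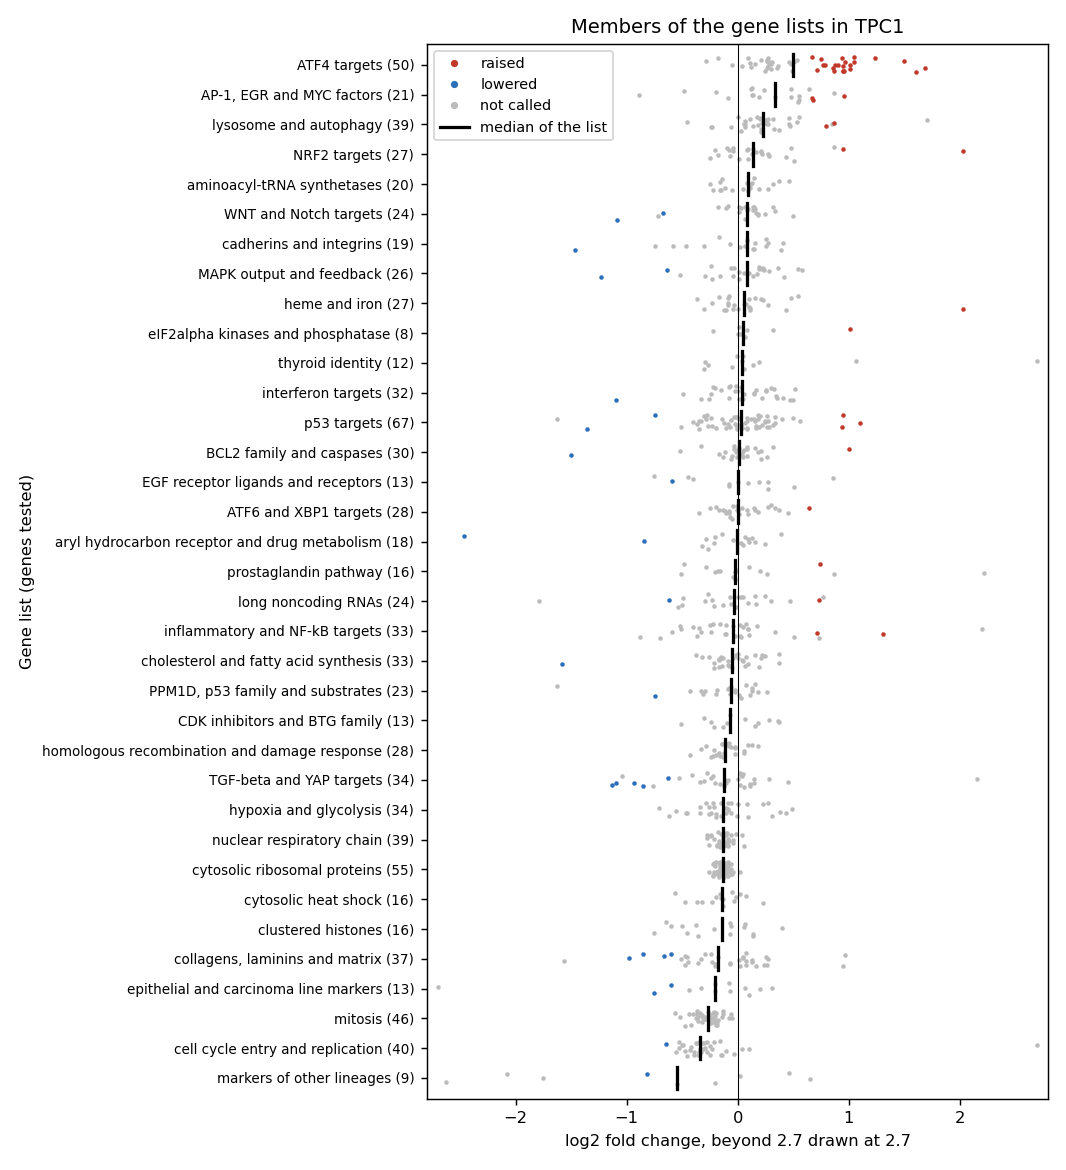
Each point is a gene of 1 of the 35 lists, placed by its log2 fold change under GSK2830371 against DMSO in TPC1, with the number of genes tested beside the list's name and a black bar at its median. Red points are raised and blue points lowered genes. The ATF4 target list stands highest, with a median of 0.50, and the mitosis and replication lists lie below 0 with 0 and 1 called genes.

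*PPM1D*, whose product the inhibitor binds, lies on chromosome 17 (58677554 to 58743641). Its mRNA stood at 15.1 and 16.6 CPM under DMSO and at 9.06 and 9.87 CPM under GSK2830371. Both treated libraries were below both controls, with a log2 fold change of -0.74 ± 0.07 (adjusted p = 1.6e-05, edgeR quasi-likelihood test, Benjamini-Hochberg). In the list of PPM1D, the p53 family and PPM1D substrates, *PPM1D* was the 1 gene called among 23 tested (median -0.06). The lowered share was 4.35%, against 1.58% of all genes tested.

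Of 67 p53 targets, 3 rose (4.48%, against 1.56% of all genes tested) and 2 fell (2.99%, against 1.58%), and the median log2 fold change was 0.03. The raised ones were *GDF15*, *SESN2* and *ATF3*, of which *SESN2* and *ATF3* also stand in the ATF4 list. The lowered ones were *PPM1D* and *INPP5D*, a lipid phosphatase with 0.644 and 0.289 CPM under DMSO and 0.0909 and 0.188 CPM under the inhibitor. At any fold, 16 of the 67 targets were higher with an adjusted p under 0.05 and 14 were lower, against 10.6% and 11.4% of all genes tested.

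*CDKN1A*, the CDK inhibitor p21 (chromosome 6, 36644237 to 36655114), had 127 and 149 CPM under DMSO and 160 and 176 CPM under GSK2830371. The groups did not overlap, but the log2 fold change of 0.28 ± 0.07 was short of 1.5-fold. *MDM2*, the ubiquitin ligase of p53, changed by 0.19 ± 0.07, and its relative *MDM4* by 0.26 ± 0.07. The antiproliferative gene *BTG2* had 21 and 21.2 CPM against 20.2 and 23.7 CPM, so that the control values lay between the treated ones (0.07 ± 0.07), and *BBC3*, the proapoptotic PUMA, changed by 0.18 ± 0.09. No gene of 13 CDK inhibitors and BTG family members was called (median -0.07), with *CDKN2C* at -0.51 ± 0.07 and *BTG1* at 0.37 ± 0.09.

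Genes of cell division were lower by small amounts. Of 46 mitosis genes none was called, yet 36 were lower with an adjusted p under 0.05 and none had a fold change above 0, against 11.4% of all genes lower at that threshold. Their median was -0.27, with values from -0.57 to -0.05. *CDC20*, an activator of the anaphase-promoting complex, went from 393 and 433 CPM to 267 and 290 CPM (-0.57 ± 0.07), and the kinesin *KIF20A* had a log2 fold change of -0.52 ± 0.07. The proliferation marker *MKI67* stood at -0.36 ± 0.07.

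Of 40 genes of cell cycle entry and replication, 1 fell (2.5%, against 1.58% of all genes tested). At any fold, 31 were lower with an adjusted p under 0.05, against 11.4% of all genes tested (median -0.34). The lowered gene was *E2F8*, a repressor of the E2F family, at 28.4 and 26.3 CPM under DMSO and 17.9 and 17.0 CPM under the inhibitor (-0.64 ± 0.08). *GINS2*, a part of the replicative helicase, had -0.56 ± 0.07. In 28 genes of homologous recombination and the damage response none was called (median -0.11), with *H2AFX* at -0.43 ± 0.06 and *UNG* at -0.33 ± 0.06. None of 16 clustered histone genes was called (median -0.14), with *HIST1H1C* at -0.22 ± 0.12 and *HIST1H2BK* at -0.07 ± 0.08.

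Of 27 NRF2 targets, the antioxidant genes, 2 rose (7.41%, against 1.56% of all genes tested) and none fell. The raised genes were *HMOX1* and *SLC7A11* (list median 0.14). In the list of 27 heme and iron genes *HMOX1* was the 1 gene called (3.70%, median 0.06). The heme transporter *SLC48A1* reached 0.54 ± 0.07, from 47.1 and 50.3 CPM to 70.4 and 71.4 CPM. Of 39 lysosome and autophagy genes 2 rose (5.13%), the autophagy receptor *SQSTM1* and the GTPase gene *RRAGD*. At any fold, 19 were higher with an adjusted p under 0.05, against 10.6% of all genes tested (median 0.23). *SQSTM1* had 781 and 858 CPM under DMSO and 1456 and 1536 CPM under GSK2830371 (0.87 ± 0.11), and *RRAGD* 7.92 and 7.2 CPM against 12.7 and 13.2 CPM. *SQSTM1* is also a member of the ATF4 list.

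The list headed AP-1, EGR and MYC factors had 3 raised genes of 21, or 14.3% against 1.56% of all genes tested, and none lowered (median 0.33). The 3 were *KLF2*, *MXD1* and *NR4A1*, none of which is an AP-1 or EGR factor or *MYC* itself. In the fit without the replicate block 1 member was raised. *KLF2*, a factor of quiescence and shear stress, had 20.1 and 26.4 CPM under DMSO and 37.2 and 53.5 CPM under the inhibitor (0.96 ± 0.08). *MXD1*, an antagonist of MYC, rose by 0.68 ± 0.09 and the nuclear receptor *NR4A1* by 0.67 ± 0.15. Of 26 genes of MAPK output and feedback none rose and 2 fell (7.69%, against 1.58% of all genes tested, median 0.08). The lowered genes were *SPRY1* and the ephrin receptor *EPHA4* (-0.64 ± 0.10). Of 13 EGF receptor ligands and receptors 1 fell (7.69%, median 0.0034), the ligand *EREG*, from 35.8 and 27.8 CPM to 23.0 and 19.1 CPM (-0.59 ± 0.07). *HBEGF* reached 0.51 ± 0.12 without a call.

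Of 34 TGF-beta and YAP targets 5 fell and none rose, which is 14.7% against 1.58% of all genes tested (median -0.12). Besides *THBS1* and *TGFB2*, these were *PMEPA1*, an inhibitor of TGF-beta signalling with 91.4 and 84.5 CPM against 44.4 and 47.1 CPM (-0.94 ± 0.06), the actin-binding *TAGLN* (-0.85 ± 0.09), and *SMAD6*, an inhibitory SMAD (-0.62 ± 0.09). Of 37 collagens, laminins and other matrix genes 4 fell and none rose, or 10.8% (median -0.17). *SPARC* had 772 and 850 CPM against 491 and 532 CPM (-0.66 ± 0.08), and the others were *COL8A1* (-0.60 ± 0.09), *COL6A3* (-0.85 ± 0.14) and *COL1A1* (-0.98 ± 0.18).

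In the same libraries 1 of 9 tested markers of other lineages fell (11.1%, against 1.58% of all genes tested). This was *PDGFRB*, a receptor of mesenchymal cells, with 14.2 and 12.7 CPM against 7.73 and 7.52 CPM (-0.82 ± 0.11). The list median was -0.54, but -0.32 within replicate 1 and -0.07 within replicate 3. Over 19 other settings it ran from -0.68 to 0.01. The macrophage marker *CD68* stood at 33.9 and 36.5 CPM under DMSO and at 45.8 and 50.9 CPM under the inhibitor (0.46 ± 0.10), without a call, while *PTPRC* was at 0. The summed level of the 27 markers was 53.3 and 54.5 CPM under DMSO and 57.8 and 62.9 CPM under the inhibitor. Most of this sum was *CD68*, so it does not describe the other markers. *LUM* had 3.73 and 3.64 CPM against 2.46 and 2.57 CPM, and *SYP* 0.644 and 0.964 CPM against 1.21 and 1.38 CPM. Of the 9 tested markers, 3 had a fold change above 0. The part of these markers in the matrix result was not tested. In bulk RNA, fewer cells of a type and less RNA per cell cannot be told apart. Of 13 tested epithelial and carcinoma line markers 2 fell (15.4%, against 1.58% of all genes tested), with a list median of -0.20. They were the keratins *KRT80* (127 and 131 CPM against 74.1 and 78.3 CPM, -0.76 ± 0.07) and *KRT7* (-0.61 ± 0.12). None of 12 tested thyroid identity genes was called (median 0.04), with *HHEX* at -0.29 ± 0.11 and *THRB* at -0.27 ± 0.09.

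In the inflammatory and NF-kB list 2 of 33 genes rose (6.06%, against 1.56% of all genes tested, median -0.04). *IL6* went from 5.26 and 6.31 CPM to 8.76 and 10.2 CPM (0.71 ± 0.09). *IL24* had 0.886 and 0.758 CPM against 1.46 and 2.31 CPM (1.31 ± 0.36). Of 32 interferon targets 1 fell (3.1%, against 1.58% of all genes tested, median 0.04), *IFI44L* at 1.05 CPM or less in the 4 libraries. *TAP1* (0.47 ± 0.07) and *GBP1* (-0.49 ± 0.12) were not called. In the prostaglandin list 1 of 16 rose (6.25%, median -0.03), *PTGES*, prostaglandin E synthase, from 3.95 and 4.17 CPM to 7.0 and 6.67 CPM (0.74 ± 0.14). Of 30 genes of the BCL2 family and caspases 1 rose and 1 fell (3.33% each, median 0.01), *BCL2A1* (1.01 ± 0.22) and the death ligand *TNFSF10* (-1.50 ± 0.31), which reached no more than 1.90 and 1.56 CPM in any of the 4 libraries.

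Of 24 WNT and Notch targets 2 fell (8.33%, against 1.58% of all genes tested, median 0.09). These were the WNT receptor *FZD8*, from 35.5 and 32.3 CPM to 21.6 and 20.7 CPM (-0.67 ± 0.09), and *LGR5* (-1.09 ± 0.23). Of 19 cadherins and integrins *CDH6* was the 1 gene called (5.26%, median 0.08), with *ITGA2* at 0.39 ± 0.09. Of 24 long noncoding RNAs 1 rose and 1 fell (4.17% each, against 1.56% and 1.58% of all genes tested, list median -0.04). *NEAT1* rose from 124 and 81.1 CPM to 201 and 139 CPM (0.73 ± 0.08), and *MIR210HG* fell (-0.62 ± 0.15). In *NEAT1* the replicate 1 library was the higher one in both groups.

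Of 33 genes of cholesterol and fatty acid synthesis none rose (median -0.06), with *EBP* at -0.38 ± 0.07 and *ACSS2* at 0.37 ± 0.06. Of 18 genes of the aryl hydrocarbon receptor and drug metabolism 2 fell (11.1%, against 1.58% of all genes tested, median -0.0051). These were *CYP24A1* at 0.551 CPM or less (-2.47 ± 0.63) and the efflux pump *ABCB1* (-0.85 ± 0.22). No gene was called among 34 of hypoxia and glycolysis (median -0.13, with *PFKFB4* at -0.55 ± 0.07 and *ENO2* at 0.49 ± 0.11), 39 nuclear genes of the respiratory chain (median -0.13, with *UQCRFS1* and *NDUFS3* both at -0.28) or 55 cytosolic ribosomal proteins (median -0.13, with *RPL34* at -0.26 ± 0.07 and *RPS14* at -0.22 ± 0.06).

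Among the called genes named here, 21 lost the call in the fit without the replicate block. These are *TM4SF19*, *INPP5D*, *ERN1*, *SLC7A11*, *CYP24A1*, *ABCB1*, *RRAGD*, *EPHA4*, *KLF2*, *NR4A1*, *EREG*, *IL24*, *IFI44L*, *COL1A1*, *BCL2A1*, *TNFSF10*, *PTGES*, *LGR5*, *NEAT1*, *MIR210HG* and *KRT7*. *ERN1* was also lost under the adjustment for GC content and length.

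The nutlin libraries allow the inhibitor to be examined in separate TPC1 samples, since the contrast of the combination with nutlin shares no library with that of GSK2830371 with DMSO, although the replicate numbers pair them. In this contrast 1161 genes rose (7.60%) and 987 fell (6.46%). Of the 239 genes raised by the inhibitor alone, 116 also rose on top of nutlin (48.5%, or 9.99% of the 1161) and 13 fell. Of the 241 lowered genes, 101 also fell (41.9%, or 10.2% of the 987) and 8 rose. The median log2 effect on top of nutlin was 0.58 for the raised and -0.59 for the lowered genes, against 0.01 for all genes tested. Across 12217 genes at 1 CPM or more, the effects without and with nutlin had a correlation of 0.376, a description over genes that share libraries within each contrast.

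Of the 50 members of the ATF4 list, 34 rose on top of nutlin, against 7.60% of all genes tested, and none fell, with a median of 1.04. *CHAC1* went from 10.3 and 9.69 CPM under nutlin to 299 and 340 CPM under the combination, a log2 effect of 5.01 ± 0.08. The effect exceeded that without nutlin by 3.32 ± 0.10 (adjusted p = 2.6e-11 for the difference of the 2 effects, edgeR quasi-likelihood test, Benjamini-Hochberg). *DDIT3* had 13.5 and 13.9 CPM under nutlin and 210 and 154 CPM under the combination, and the difference of the effects was 2.20 (adjusted p = 5.6e-07, same edgeR test). For *PCK2* and *ASNS* these differences were 1.29 and 1.11. *CTH*, with an effect of 2.05 on top of nutlin, and *SESN2*, with 0.94, differed by 0.44 and -0.0038 between the contrasts, short of a call. Of the 20 aminoacyl-tRNA synthetases 8 rose on top of nutlin, again against 7.60%.

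Other genes had a smaller or an opposite effect on top of nutlin. *HMOX1* had 448 and 467 CPM under nutlin and 891 and 481 CPM under the combination, where replicate 1 stood far above replicate 3. Its effect there was 0.56 ± 0.17, lower by 1.47 than without nutlin (adjusted p = 0.00037 for the difference, edgeR quasi-likelihood test). *SPRY1*, which fell under the inhibitor alone, rose on top of nutlin by 1.32 ± 0.10, from 8.16 and 6.45 CPM to 17.7 and 18.1 CPM. *PTGES*, which rose alone, fell by 1.76 on the log2 scale on top of nutlin, from 5.55 and 5.70 CPM to 1.22 and 1.97 CPM, and *EREG*, which fell alone, rose by 0.73. *CDH6*, by contrast, fell further on top of nutlin, from 12.6 and 13.8 CPM to 0.470 and 0.513 CPM under the combination. Its log2 effect was -4.73, against -1.46 without nutlin. The difference of the effects was -3.27 (adjusted p = 1.3e-07, edgeR quasi-likelihood test).

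**Figure D4:**
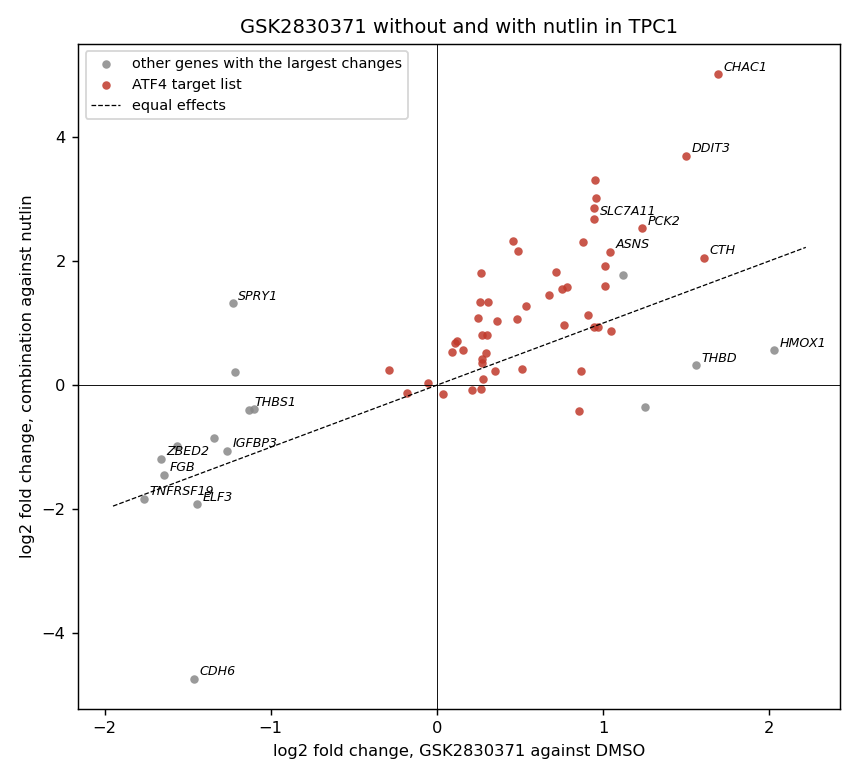
The log2 fold change of GSK2830371 against DMSO (x axis) is plotted against that of the combination with nutlin against nutlin (y axis) in TPC1 for the ATF4 target list (red) and the other genes with the largest changes (grey). The contrasts share no library, and the dashed line marks equal effects. *CHAC1* and *DDIT3* lie above the line at 5.01 and 3.70, *HMOX1* and *THBD* below it, and *SPRY1* is on opposite sides of 0.

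In K1 GSK2830371 raised 118 genes (0.705% of 16738 tested in a fit of all 16 libraries) and lowered 233 (1.39%). Of the 239 genes raised in TPC1, 15 also rose in K1 (6.28%, or 12.7% of those raised in K1), and of the 241 lowered genes 7 also fell (2.90%, or 3.0%), while none of the raised fell and 2 of the lowered rose in K1. *KLF2* and *PTGES* rose in both lines, and *CDH6* and *EREG* fell in both. The effect differed between the lines for 613 genes, being higher in TPC1 for 439 (2.62%) and lower for 174 (1.04%). After the adjustment for GC content and length 95 were higher and 160 lower in TPC1, and without the replicate block 265 and 100.

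The ATF4 list had 23 raised members in TPC1 and 1 of 50 in K1, against 0.705% of all genes in K1, with a K1 median of 0.16. The effect of 16 members differed between the lines, against 613 of 16738 genes tested. *CHAC1* had 13.9 and 11.7 CPM in K1 under DMSO and 12.9 and 16.7 CPM under the inhibitor, so that the K1 groups overlapped, and the effect in TPC1 was larger by 1.48 ± 0.17 (adjusted p = 7.0e-05 for the difference, edgeR quasi-likelihood test, Benjamini-Hochberg). *DDIT3* had 13.3 and 12.9 CPM against 11.4 and 13.4 CPM in K1, and the TPC1 effect was larger by 1.58 ± 0.18. *HMOX1* had 407 and 598 CPM against 855 and 653 CPM in K1, which did not pass the test, and the TPC1 effect was larger by 1.47 ± 0.29.

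The p53 targets *CDKN1A*, *BTG2* and *BBC3* were called in K1 and not in TPC1. *CDKN1A* went from 109 and 116 CPM to 229 and 226 CPM in K1 (1.01 ± 0.07), and its effect was lower in TPC1 by 0.73 ± 0.10 (adjusted p = 0.00030 for the difference, edgeR quasi-likelihood test). *BTG2* went from 7.39 and 8.48 CPM to 17.5 and 16.4 CPM in K1 (1.10 ± 0.09), with a difference between the lines of -1.03 ± 0.12. *BBC3* went from 10.6 and 9.31 CPM to 15.4 and 16.6 CPM in K1 (0.69 ± 0.10), and its difference between the lines, -0.50 ± 0.14, was short of 1.5-fold. In the whole p53 list 5 of 67 genes rose in K1 and none fell, where 0.705% of all genes tested rose and 1.39% fell. The K1 median of the list was 0.21, beside 3 raised, 2 lowered and a median of 0.03 in TPC1.

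**Figure D5:**
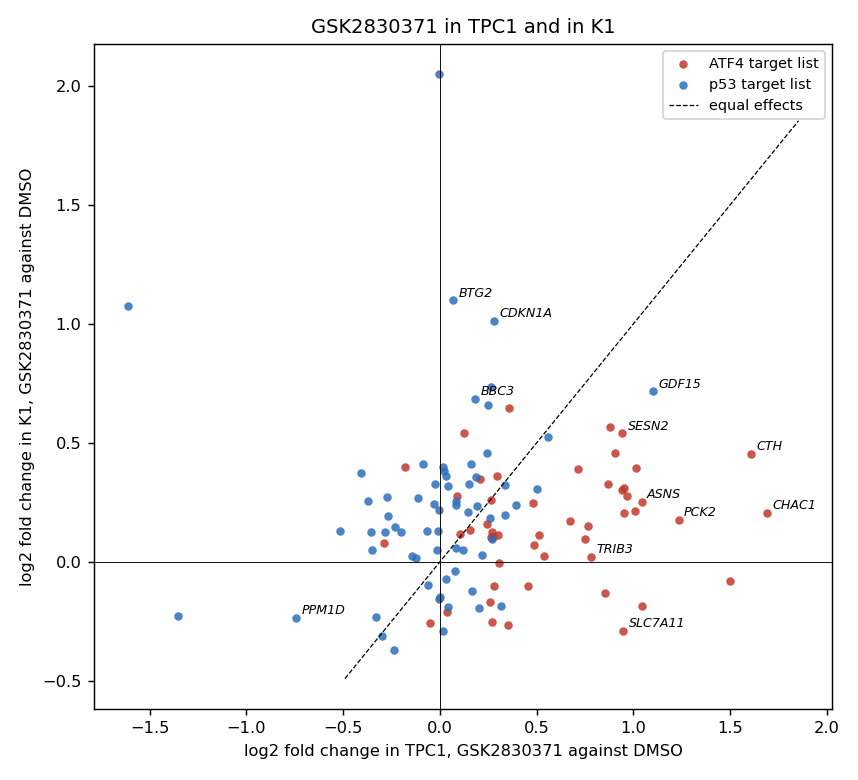
The log2 fold change under GSK2830371 against DMSO in TPC1 (x axis) and in K1 (y axis), from 1 fit of all 16 libraries, for the ATF4 target list (red) and the p53 targets outside it (blue). *CHAC1*, *CTH* and *PCK2* lie far to the right with K1 values of 0.21, 0.45 and 0.18, whereas *CDKN1A* and *BTG2* lie high with TPC1 values of 0.28 and 0.07.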

How the data were processed

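The deposited table holds raw read counts per gene symbol for all 16 libraries. The authors aligned the stranded poly(A) reads to GRCh37 with TopHat2 2.0.13, discarded reads of low mapping quality, and counted them with HTSeq 0.6.1, without normalization. Every column was used. The members compared and the gene lists were chosen with earlier results of these data known.

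Genes above 0.1 CPM in at least 2 TPC1 libraries were kept (15273 of 25369, of which 4539 have no count). The 8 TPC1 libraries were scaled by TMM and fitted in edgeR 4.0.16 (R 4.3.3, limma 3.58.1) with the replicate number as a block, which leaves 3 residual degrees of freedom, and tested by quasi-likelihood with Benjamini-Hochberg adjustment over all genes tested. All adjusted p values are from this test. A call needs an adjusted p under 0.05 and a fold change above 1.5. CPM values use the TMM-scaled totals. Values after ± are standard errors of log2 fold changes. The lines were compared in a fit of all 16 libraries with a block within each line. TPC1 replicate numbers pair the libraries, as the correlations of 6 pairs of treatments show. In K1 they do not (-0.359 to 0.379 over 12531 genes), and a block in TPC1 only gave 623 differences in place of 613. Replicates are described as independent experiments.

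Named genes are the 12 largest increases and decreases among called genes whose groups do not overlap and whose higher group reaches 5 CPM, up to 4 called genes per direction of each of 35 lists by smallest p, or up to 2 well expressed genes with the largest changes where under 2 were called, a fixed set of p53 and stress response genes, and the 4 largest line differences each way, 105 genes in all. Further members of the ATF4, mitosis and marker lists, and the shared K1 genes, were named after their values were seen. A few genes the rule names are not reported here.

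Other settings replaced the block, scaling, filter, test (DESeq2 1.42.0) or samples, or left out each library. GC content and transcript length came from a reference annotation of GRCh37, with values for 88.5% of the genes tested. Promoter windows came from RefSeq (GRCh38.p14), and 10782 of the tested symbols matched. Figures used Python and matplotlib. The tests were checked on simulated counts with 200 known changes. Without a trend in GC content, the TPC1 test recovered 99% of the 2-fold changes and made 7 false calls. The test between the lines recovered 88% and made 10. With a GC trend put into the GSK2830371 libraries, the TPC1 test made 806 false calls, and 4 with the adjustment for GC content and length. The main counts come from the fit without that adjustment.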

Additional observations from a re-analysis of the deposited data

Results flagged for a closer look

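Among the named genes, 41 had an effect of GSK2830371 that differed between TPC1 and K1 (edgeR quasi-likelihood test of the difference, Benjamini-Hochberg, fold above 1.5), 19 higher and 22 lower in TPC1. The values below are log2 differences, TPC1 minus K1, and the lines were grown in different media, which cannot be told apart from the line.

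Of the 19 genes higher in TPC1, *DDIT3* (1.58), *CHAC1* (1.48), *HMOX1* (1.47), *SLC7A11* (1.24), *KDM7A* (1.23), *CTH* (1.15), *PCK2* (1.06), *PPP1R15A* (0.80), *ASNS* (0.79) and *TRIB3* (0.76) are members of the ATF4 list, apart from *HMOX1*. The others were *SLC16A4* (3.35, at 0.198 CPM or less in the 4 K1 libraries of the comparison), *IL24* (1.29), *BCL2A1* (1.21), *SLFN5* (1.20), *THBD* (0.99), *TM4SF19* (0.84), *NEAT1* (0.66), *ITGA2* (0.65) and *IL6* (0.65). Named members of the ATF4 and p53 lists without a called line difference include *GDF15*, *ATF3*, *SESN2*, *SQSTM1*, *PPM1D*, *INPP5D* and *BBC3*.

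The 22 genes lower in TPC1 included *IGFBP3* (-1.53), *PDGFRB* (-1.17), *THBS1* (-1.16), *SPRY1* (-1.03), *EPHA4* (-0.98), *FGF1* (-0.89), *FZD8* (-0.86), *LGR5* (-0.82), *COL6A3* (-0.79), *SPARC* (-0.78), *SERPINH1* (-0.69), *COL8A1* (-0.68) and *TAGLN* (-0.63). In the whole list of collagens, laminins and matrix genes, the effect differed between the lines for 3 of 37, against 613 of 16738 genes tested. The p53 targets *BTG2* (-1.03) and *CDKN1A* (-0.73), the keratins *KRT80* (-0.94) and *KRT7* (-0.65), and *C1orf116* (-2.35), *TNFSF10* (-2.35), *PTGS1* (-2.02), *TNFRSF19* (-1.83) and *ABCB1* (-0.86) were lower too. *C1orf116* was called in both lines in opposite directions, but its level in K1 was low. It had 0.592 and 0.373 CPM there under DMSO and 0.850 and 1.09 CPM under GSK2830371.

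Of the 41 genes, 25 were also called without the replicate block, 31 after the adjustment for GC content and length, and 20 in those fits, in the fit with a block in TPC1 only and with any 1 of the 16 libraries left out. These 20 include *HMOX1*, *CHAC1*, *CTH*, *DDIT3*, *CDKN1A* and *BTG2*.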

How the results depend on the processing

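Without the replicate block, 110 genes rose and 104 fell under GSK2830371 in TPC1, and 365 differed between the lines. Fits of the compared groups without the block gave 51 and 55 genes in edgeR, and 54 and 55 in DESeq2 with moderated fold changes, which on top of nutlin gave 709 and 657. DESeq2's Wald test with the block called 145 lowered genes. With no limit on fold change the counts were 1620 and 1740 for the inhibitor alone, 3384 and 3257 on top of nutlin, and 2398 between the lines. The adjustment for GC content and transcript length, added after the data were seen, left 255 differences between the lines and gave no value for the clustered histones, none of which has reference values.

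With each library left out in turn, raised genes ran from 141 to 250 and lowered genes from 116 to 264, on top of nutlin from 900 to 1163 and from 797 to 1016, and differences between the lines from 286 to 876. GSK2830371 replicate 3 gave the lowest counts for the inhibitor alone (141 and 116), GSK2830371 replicate 1 gave 158 lowered genes, and TPC1 DMSO replicate 3 and K1 GSK2830371 replicate 1 gave 287 and 286 differences between the lines. The cause was not tested. Where a group keeps 1 library, it is assumed to vary like the others.

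For the 62 called genes named here, 1050 of 1178 combinations of gene and setting kept call and direction, 128 lost the call and 0 changed direction, and 29 genes kept the call in every setting. Many of these genes were chosen for large changes or small p in the same libraries, so their retention adds no support. Of all 480 called genes, 212 were also called without the replicate block. In the edgeR fit of the compared groups without the block, 105 of the 480 were called. With 2 libraries per group, the spread rests on few samples.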
